A study of Homo sapiens with 6 samples.

Results

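The miR-21 hairpin gives a pair of mature strands, miR-21-5p (hsa-miR-21-5p) and miR-21-3p (hsa-miR-21-3p), and both were followed here through small RNA libraries of total RNA and of RNA recovered with an antibody against N7-methylguanosine (m7G). These 2 miRNAs of the 2588 listed were selected on their measured levels in these same libraries, namely the large share of total RNA counts taken by miR-21-5p and its smaller share in the antibody-recovered RNA. Their levels, shares and ratios are therefore given as a description, with no test. Both passed the filter on low counts that left 620 miRNAs, and both were measured in all 6 libraries.

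All libraries were made from A549, a line of human lung adenocarcinoma cells, infected with a lentiviral vector that expresses an shRNA against METTL1 from a doxycycline-inducible promoter. METTL1 is a methyltransferase that makes m7G in RNA. Cells of both groups had received doxycycline at 200 ng/ml, and RNA was taken on day 5. One group of 3 libraries held total RNA (total RNA, the input), and the other group of 3 held RNA that was heat-denatured and pulled down with the anti-m7G antibody (m7G-RIP). The question of the m7G-RIP libraries is which mature miRNAs are recovered by the antibody over input. Because both groups carried the knockdown, and no METTL1-proficient and no control immunoglobulin libraries were analysed here, the comparison does not measure an effect of METTL1 or the background of the pulldown. The labels do not say that the total RNA libraries came from the same RNA preparations as the m7G-RIP libraries, nor that replicates came from separate cultures.

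The total RNA libraries held between 9155690 and 10753443 counts and the m7G-RIP libraries between 2649238 and 3106556, and replicates differed by more than counting noise, so that each was kept. The culture text of the m7G-RIP samples names the medium of Caco-2, a colon carcinoma line, while their titles and cell line labels name A549. No single miRNA defines A549. Of 9 miRNAs of intestinal and other cohesive epithelium, none was at 0 in every library, and their summed level was 18467 to 18732 CPM (counts per 1000000 counts of the library) in total RNA, against 4023 to 4266 CPM in the m7G-RIP group. Most of it was miR-192-5p, at 17545 to 17704 CPM and 3445 to 3582 CPM. The other members did not all follow this sum. MiR-194-5p, miR-215-5p, miR-200a-3p and miR-200b-3p were also lower in every m7G-RIP library, while miR-429 overlapped. MiR-375 was higher there, at 192 to 260 CPM against 87.4 to 92.2 CPM in total RNA. So was miR-200c-3p on this scale, at 91.7 to 131 CPM against 65.7 to 76.9 CPM. These CPM rest on library totals that include miR-21-5p. With miR-21-5p left out of the totals, the log2 ratio of m7G-RIP to total RNA was 0.55 for miR-375 but -0.24 for miR-200c-3p. MiR-141-3p had 6, 0 and 3 counts in total RNA and 0 in each m7G-RIP library. Of 6 blood cell miRNAs, 4 (miR-144-3p, miR-486-5p, miR-142-3p and miR-223-3p) had no count in any library, and the liver miRNA miR-122-5p had none either, where a count of 0 allows up to 0.279 to 0.328 CPM in total RNA libraries and 0.966 to 1.13 CPM in the m7G-RIP libraries. The other blood miRNAs summed to at most 0.39 CPM in the total RNA group and 1.81 CPM in the m7G-RIP group. Of 3 muscle miRNAs miR-206 was at 0, and the sum of the others was 7.54 to 9.65 CPM for total RNA but 0.644 to 135 CPM in m7G-RIP, where replicate 2 held miR-1-3p at 94.1 CPM and miR-133a-3p at 41.3 CPM. The part of these markers in the results below was not tested. In bulk libraries like these, fewer cells that make a miRNA and less of it per cell cannot be told apart.

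MiRNAs are cut from hairpin transcripts by DROSHA in the nucleus and by DICER1 in the cytoplasm, and of the resulting duplex one strand, the guide, is kept by an Argonaute protein while the other, the passenger, is mostly degraded. The guide pairs with target mRNAs chiefly through its seed, the bases near its 5′ end. MiR-21-5p is the guide strand of its hairpin and one of the most abundant miRNAs of carcinoma cells, where it is known as an oncomiR that lowers tumour suppressors such as PDCD4. MiR-21-3p is the passenger strand. N7-methylguanosine is a guanosine with a methyl group on its base, best known from the mRNA cap, tRNA and rRNA.

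The mature sequence of miR-21-5p is printed below, 5′ to 3′, with its seed (bases 2 to 8) in capitals, beside that of miR-590-5p, the single other listed miRNA with a RefSeq sequence that has the same seed, to show how far their likeness goes beyond the seed. Both sequences are from RefSeq on GRCh38.p14.
hsa-miR-21-5p: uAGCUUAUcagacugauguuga
hsa-miR-590-5p: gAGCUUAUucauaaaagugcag
MiR-21-5p is 22 bases long and lies at chr17:59841273-59841294 on the plus strand, within the MIR21 hairpin at chr17:59841266-59841337. The hairpin lies inside VMP1, a protein-coding gene for a membrane protein of autophagy that runs from 59707192 to 59842255 on the same strand. In GENCODE annotation 10 VMP1 transcripts have an exon over the hairpin, with 8 UTR annotations and no coding sequence there. MiR-590-5p is cut from MIR590, at chr7:74191213-74191234 on the plus strand.

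MiR-21-5p was the most abundant miRNA of every total RNA library and the sixth of every m7G-RIP library. It had 5230937, 5030366 and 4078719 counts in total RNA replicates 1, 2 and 3, which were 48.6%, 49% and 44.5% of the counts. In m7G-RIP it had 128009, 138349 and 152492 counts, or 4.83%, 5.01% and 4.91%. The groups were far apart and did not overlap. As shares, the m7G-RIP libraries lay closer together than the total RNA libraries, with an SD of 1.78% of the mean against 5.24%. On the TMM scale used below they did not, at 7.05% against 5.84%. The mean share was 47.4% ± 2.48 in total RNA and 4.92% ± 0.0875 in m7G-RIP (SD, n = 3 each), a difference of -42.5 percentage points. Counting error was small beside this spread, since the Wilson 95% interval of the first total RNA library was 48.6% to 48.7% and that of the first m7G-RIP library 4.81% to 4.86%.

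The place of miR-21-5p among the other miRNAs differed between the groups too. Mature miRNAs are read whole, so counts of different miRNAs were compared with no correction for length. In total RNA replicates 1 and 2 the next miRNA was miR-100-5p, with 6.67% and 7.3% of counts, and in replicate 3 it was miR-92a-3p, of the miR-17-92 cluster, with 8.08%. MiR-21-5p had 7.3, 6.72 and 5.51 times the counts of that next miRNA. In m7G-RIP miR-92a-3p led every library with 22.3%, 20.1% and 24.9% of counts, and miR-21-5p had 0.217, 0.249 and 0.197 of its counts.

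MiR-21-3p, the passenger strand, was rare in both groups and rarer in m7G-RIP. It had 5940, 4409 and 4544 counts in total RNA and 58, 57 and 111 counts in m7G-RIP replicates 1, 2 and 3. As library-size CPM, counts divided by the library total, these were 552, 430 and 496 CPM for total RNA and 21.9, 20.6 and 35.7 CPM for m7G-RIP. The exact Poisson 95% intervals were 16.6 to 28.3, 15.6 to 26.7 and 29.4 to 43 CPM in m7G-RIP replicates 1, 2 and 3, so replicate 3 lay above the others by more than counting error. Every m7G-RIP library was below every total RNA library. By rank the strand stood at 74, 86 and 76 in total RNA and at 275, 286 and 242 in m7G-RIP. Its share was 0.0493% ± 0.00614 of counts in total RNA and 0.00261% ± 0.000838 in m7G-RIP (SD, n = 3 each). At the depth of the m7G-RIP libraries the total RNA shares would have given 1138 to 1716 counts.

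**Figure D1:**
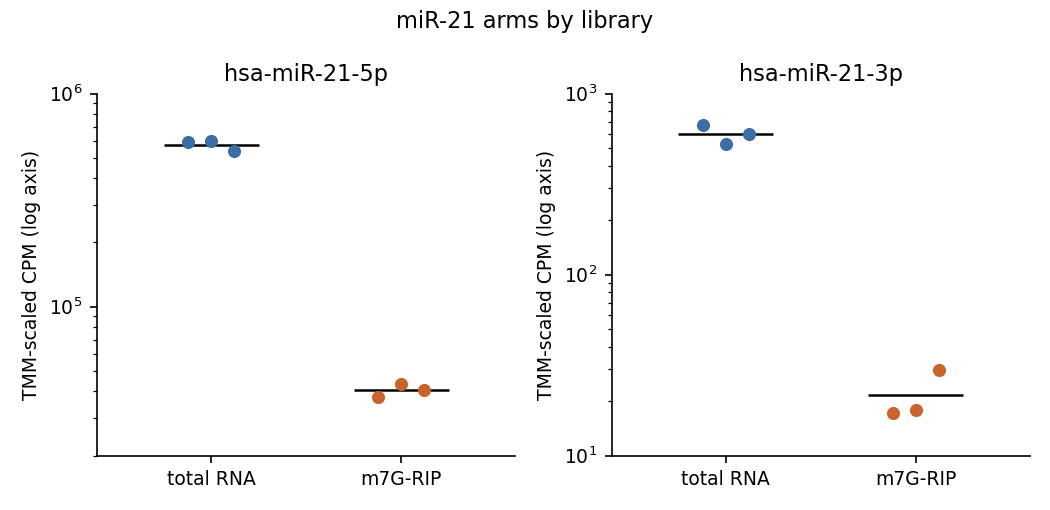
Level of miR-21-5p (left) and miR-21-3p (right) in each library as TMM-scaled CPM on log axes, with points for the 3 total RNA and 3 m7G-RIP libraries and a line at each group mean. For both strands all 3 m7G-RIP libraries lie below all 3 total RNA libraries, at 40633 against 574548 CPM for miR-21-5p and at 21.6 against 597 CPM for miR-21-3p.

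The size of the difference depended on the scale. TMM scaling adjusts each library total so that most miRNAs balance between libraries, and it was the main scale. On it miR-21-5p stood at 589992, 597629 and 536022 CPM in the total RNA group and at 37688, 43411 and 40799 CPM in the m7G-RIP group, so the group means of 574548 ± 33582 and 40633 ± 2865 CPM (SD, n = 3 each) were 14.1-fold apart. The lowest total RNA library was 12.3 times the highest m7G-RIP library. MiR-21-3p stood at 670, 524 and 597 CPM against 17.1, 17.9 and 29.7 CPM, a 27.7-fold difference of the means. On plain library size the means of miR-21-5p, 474063 ± 24823 and 49157 ± 875 CPM, were 9.64-fold apart, and with miR-21-5p left out of the library totals they were 17.5-fold apart.

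The fit of edgeR across all 620 miRNAs gave miR-21-5p a log2 ratio of m7G-RIP to total RNA of -3.82 (SE 0.11) and miR-21-3p one of -4.78 (SE 0.25), where the median of all miRNAs was -0.07. From the lowest ratio upward they ranked 41 and 22 of 620. In the same fit 146 miRNAs were enriched in m7G-RIP (23.5%) and 181 depleted (29.2%) at an adjusted p under 0.05 by edgeR's quasi-likelihood test with Benjamini-Hochberg adjustment. The amount of RNA recovered is not known, so a ratio says only how a miRNA fared beside the rest of its library.

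A comparison of miR-21 with other miRNAs one at a time needs no library scale. Among the 358 other miRNAs that reached 10 counts in each library, the ratio of miR-21-5p to the other was lower in every m7G-RIP library than in every total RNA library for 341 (95.3%), higher for 4 and overlapping for 13. The median change of that ratio was -3.91 on the log2 scale. For miR-21-3p the numbers were 351 lower (98%), 1 higher and 6 overlapping, with a median of -4.92. These ratios share the counts of the miR-21 strand, so they are not independent of each other. The minimum of 10 counts also left out miRNAs that fell further, such as miR-19b-3p (log2 ratio -6.82), with 2, 6 and 6 counts in m7G-RIP. The shares therefore hold only for the 358 miRNAs compared. Because miR-21 was chosen on its lower share in m7G-RIP, they are descriptions.

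The ratio of the strands to each other is also free of the library scale. Total RNA held 881, 1141 and 898 counts of miR-21-5p per count of miR-21-3p in replicates 1, 2 and 3, with exact 95% intervals of 859 to 903, 1108 to 1175 and 872 to 924. M7G-RIP held 2207, 2427 and 1374, with intervals of 1707 to 2907, 1873 to 3205 and 1141 to 1670. The passenger strand was thus the scarcer relative to its guide in every m7G-RIP library. The interval of m7G-RIP replicate 3 lay below those of the other m7G-RIP libraries and overlapped that of total RNA replicate 2. The mean ratio was 973 ± 146 in total RNA and 2003 ± 556 in m7G-RIP (SD, n = 3 each), 2.06 times as high. Expressed the other way, 1.04 ± 0.144 counts of miR-21-3p were found per 1000 counts of miR-21-5p in total RNA and 0.531 ± 0.172 in m7G-RIP. The log2 ratio was 9.92 ± 0.21 in total RNA and 10.93 ± 0.44 in m7G-RIP, a difference of 1.01, and with the counts of each group summed the ratios were 963 and 1853.

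**Figure D2:**
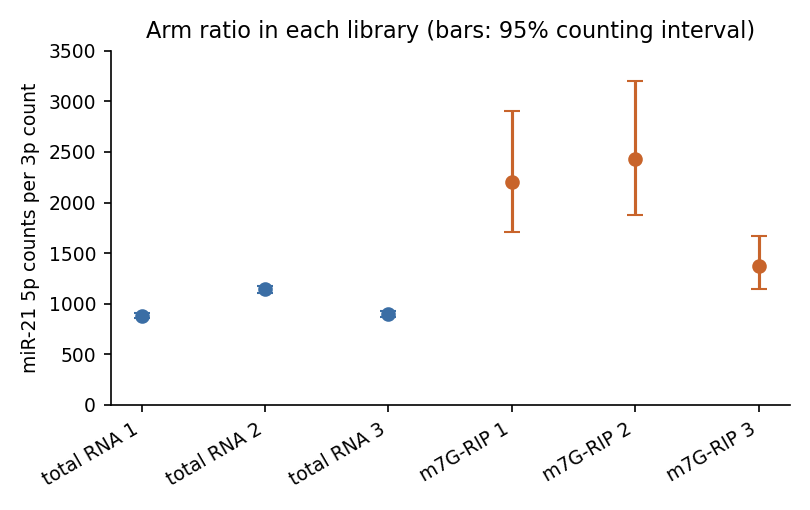
Counts of miR-21-5p per count of miR-21-3p in each of the 3 total RNA and 3 m7G-RIP libraries, on a linear axis from 0, with bars for the exact 95% counting interval. The m7G-RIP values of 1374 to 2427 lie above the total RNA values of 881 to 1141, while the bar of m7G-RIP replicate 3 reaches down to 1141.

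Other hairpins were set beside miR-21 to show how common such a change is. Both strands passed the filter for 139 hairpins, and of these 68 had at least 10 counts of each strand in every library. Not all of the 68 are separate measurements. The strands of miR-625 had nearly the same counts as each other, and miR-365a-3p and miR-365b-3p had the same counts. In total RNA miR-21 ranked 5 of 139 by how far its major strand exceeded the minor one. Among the 68, the 5p to 3p ratio was higher in every m7G-RIP library for 29, lower for 17 and overlapping for 22, so that it differed without overlap for 67.6%. The change of miR-21, 0.96 on the log2 scale in the fit, ranked 40 of 68 by size, below the median of 1.36 (quartiles 0.63 and 2.31). The minor strand had the lower log2 ratio, as in miR-21, in 25 of the 68.

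Larger changes of the strand ratio were found elsewhere. Among the 68 hairpins with at least 10 counts of both strands in each library, the 5 in which 5p was lowest relative to 3p in m7G-RIP, compared with total RNA, were miR-30a (log2 change -4.57), miR-30e (-4.34), miR-194 (-4.11), miR-149 (-3.31) and miR-18a (-3.15). Among the same 68, the 5 with the largest change the other way were miR-193b (5.13), miR-3940 (4.20), let-7e (3.98), miR-654 (3.97) and miR-505 (3.75). In miR-30a the major strand, miR-30a-5p, had a log2 ratio of -3.92, close to that of miR-21-5p, while its partner miR-30a-3p had 0.66. In let-7e the tumour suppressor strand let-7e-5p had 2.24 and its partner -1.74.

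Both strands of miR-21 were low in m7G-RIP, which was not so for most of the 68 hairpins. The minimum of 10 counts in every library leaves out hairpins with a strand near 0 in either group. Some strongly depleted hairpins are thus missing from the counts below. Both strands were depleted in 11 of the 68 hairpins, both were enriched in 10, and the strands were called in opposite directions in 13, beside 29.2% of all miRNAs depleted and 23.5% enriched. Among these 68 the mean log2 ratio of the miR-21 strands, -4.30, was the lowest, and the median was 0.12. The hairpin next to it was miR-148a, with -3.88 for its 5p and -3.55 for its 3p strand. It was followed by miR-140, with -2.31 and -2.06. Hairpins left out by the count minimum could lie lower. In miR-582, for example, the log2 ratios were -8.05 for 5p and -4.08 for 3p. The 5p strand of miR-582 had 0 counts in every m7G-RIP library, so its ratio gives no fold. MiR-21 was chosen on these values, so its place here is a description.

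**Figure D3:**
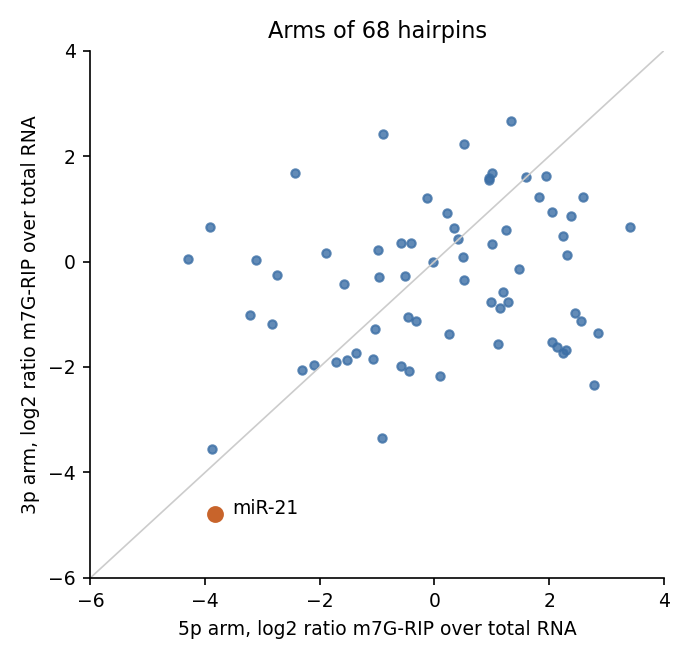
Log2 ratio of m7G-RIP to total RNA of the 5p strand (horizontal) and of the 3p strand (vertical) for the 68 hairpins with at least 10 counts of both strands in every library, with a grey line where both are equal. MiR-21, in orange at -3.82 and -4.78, lies at the lower left, and miR-148a at -3.88 and -3.55 is the point nearest to it.

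On library size scaling, the share of miR-21-5p in total RNA enters the CPM of every other miRNA. All other miRNAs together took 52.6% ± 2.48 of the counts in total RNA and 95.1% ± 0.0875 in m7G-RIP (SD, n = 3 each), a 1.81-fold difference or 0.85 on the log2 scale. Leaving miR-21-5p out of the library totals multiplied the CPM of every other miRNA by 1.95, 1.96 and 1.8 in total RNA replicates 1, 2 and 3, but by 1.05 in each m7G-RIP library. The totals fell to 5522506, 5230234 and 5076971 counts in total RNA and to 2521229, 2625053 and 2954064 counts in m7G-RIP.

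On library size the other 619 miRNAs had a median log2 ratio of 0.48, and 354 of them (57.2%) were above 0. Without miR-21-5p in the totals the median was -0.36 and 263 (42.5%) were above 0. The median shift was -0.85, with a range of -0.87 to -0.82 from the 5th to the 95th percentile, so the miRNAs moved almost as a block. The sign of the ratio turned from positive to negative for 91 miRNAs and in the other direction for 0. TMM scaling was nearly indifferent to the removal. Its medians were -0.05 with miR-21-5p and -0.04 without it, the median shift was 0.03, and 3 signs changed. The TMM factors themselves moved to make up for the removal, from 0.82 to 0.831 up to 1.06 to 1.15 in total RNA, and from 1.15 to 1.28 down to 0.869 to 0.939 in m7G-RIP.

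**Figure D4:**
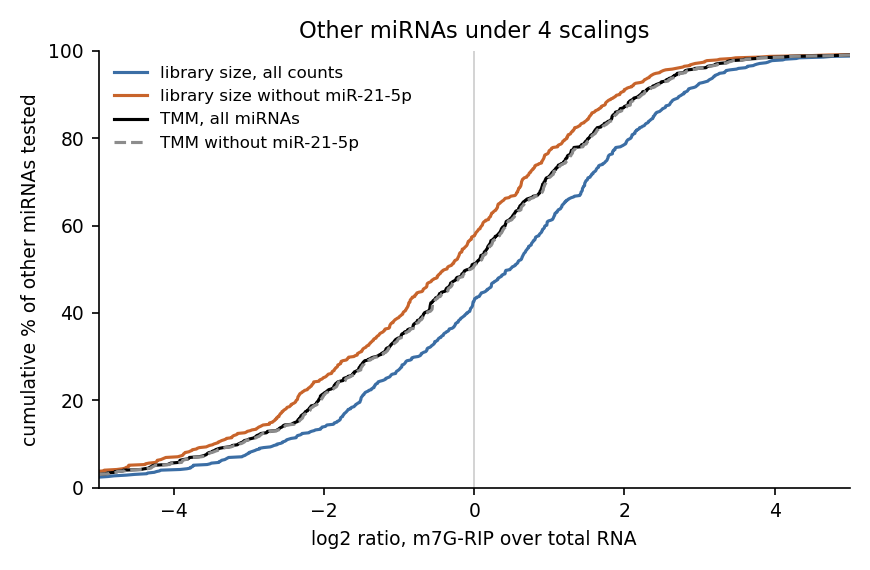
Cumulative percentage of the other 619 miRNAs tested (vertical) against their log2 ratio of m7G-RIP to total RNA (horizontal, shown from -5 to 5) under library size and TMM scaling, each with and without miR-21-5p. The library size curve moves left by 0.85 when miR-21-5p is left out, and the TMM curves lie on each other between the library size curves.

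The calls moved with the scale. Of 620 miRNAs, edgeR's quasi-likelihood test on library size called 216 enriched (34.8%) and 141 depleted (22.7%), so 60.5% of the calls were enriched. With miR-21-5p out of the library totals it called 118 enriched (19%) and 211 depleted (34%), and 35.9% of the calls were enriched. In all 164 calls changed: 94 miRNAs went from enriched to not called, 66 from not called to depleted, and 4 from enriched to depleted, while 118 stayed enriched and 141 stayed depleted. On the TMM scale, where 44.6% of the calls were enriched, the removal changed 8 calls and gave 152 enriched (24.5%) and 179 depleted (28.9%).

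The most abundant miRNAs whose call depended on miR-21-5p in the totals were miR-100-5p and let-7i-5p. Let-7i-5p, of the let-7 family that restrains growth and migration genes such as HMGA2, turned from enriched to depleted. It had 519953, 492098 and 461163 counts in total RNA and 171432, 181295 and 204048 in m7G-RIP. Its log2 ratio was 0.42 (SE 0.08, adjusted p = 0.00185) on library size and -0.44 (SE 0.08, adjusted p = 0.00121) without miR-21-5p, and on the TMM scale it was not called at -0.13 (adjusted p = 0.238). MiR-100-5p lost its enriched call, with 0.76 on library size, -0.09 without miR-21-5p and 0.22 on the TMM scale. MiR-10a-5p and miR-7-5p, near 0 on library size at 0.03 and -0.02, were depleted without miR-21-5p at -0.82 and -0.88 and also on the TMM scale at -0.52 and -0.58.

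The rest of the 10 most abundant that changed call were let-7f-5p, miR-26a-5p, miR-222-3p, let-7g-5p, miR-125a-5p and miR-128-3p. All were enriched on library size, with log2 ratios from 0.58 to 1.07, and not called without miR-21-5p, with -0.27 to 0.22. On the TMM scale let-7f-5p (0.42, adjusted p = 0.0106), miR-222-3p (0.36, adjusted p = 0.0174) and miR-125a-5p (0.52, adjusted p = 0.0148) stayed enriched, while miR-26a-5p, let-7g-5p and miR-128-3p were not called. Members of the let-7 family differ by few bases, and an alignment with up to 1 mismatch can move reads between them, so their separate counts are uncertain.

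Of 6 miRNAs picked from those of interest to the study, as mature strands or through their primary transcripts, 5 kept their call with and without miR-21-5p. The log2 ratio went from 2.79 to 1.94 for let-7e-5p, from 1.74 to 0.90 for let-7a-5p, from 2.38 to 1.53 for let-7b-5p and from 3.12 to 2.27 for miR-23b-5p, all enriched under both. For miR-148a-3p it was -3.86 without miR-21-5p, and the miRNA was depleted under both. MiR-125a-5p was the exception, with 1.07 on library size and 0.22 (adjusted p = 0.162) without miR-21-5p.

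Among the 10 most abundant miRNAs of total RNA, miR-21-5p moved the scale most. Each of them was left out of the library totals in turn. The shift was computed from its share in each library and averaged on the log2 scale. The log2 ratio of all others shifted by -0.86 for miR-21-5p, 0.26 for miR-92a-3p, 0.11 for let-7a-5p, and 0.08 for miR-100-5p and miR-99b-5p. The other 5 moved it by -0.02 to 0.03. The shift of miR-92a-3p had the opposite sign, and its share was 7.03% ± 0.911 in total RNA and 22.4% ± 2.39 in m7G-RIP. The 9 miRNAs beside miR-21-5p together took 32.8% ± 2.34 of total RNA and 67.7% ± 1.13 of m7G-RIP. As shares of the counts that were not miR-21-5p, miR-100-5p took 13.8% ± 0.75 and 13% ± 2.77, and miR-92a-3p 13.3% ± 1.08 and 23.6% ± 2.51.

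**Figure D5:**
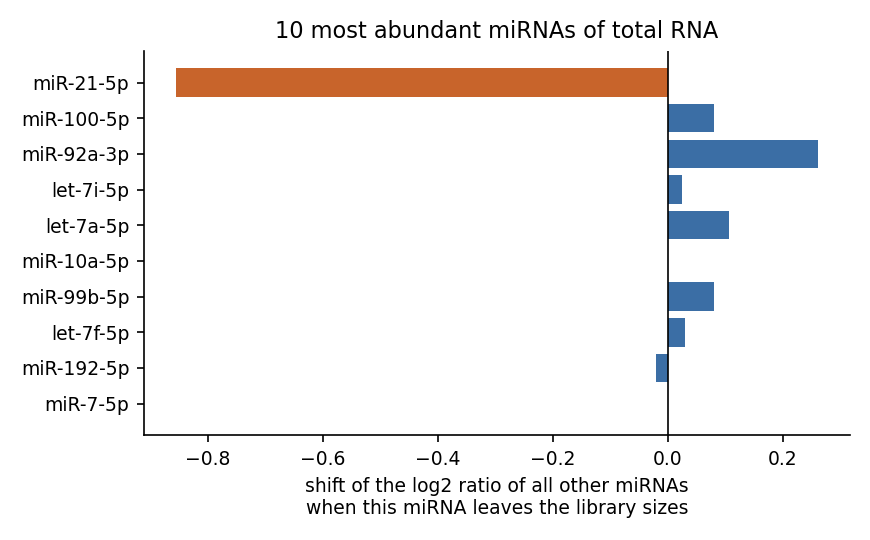
Shift of the log2 ratio of m7G-RIP to total RNA of all other miRNAs (horizontal) when each of the 10 most abundant miRNAs of total RNA is left out of the library totals, as bars from 0, with miR-21-5p in orange. The bar of miR-21-5p reaches -0.86 and the longest of the others, miR-92a-3p, reaches 0.26.

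The miRNAs whose profile was most like that of miR-21-5p were found by the root mean square difference of centred log2 TMM-scaled CPM over the 6 libraries, among 359 miRNAs that reached 10 counts in each. With 6 libraries in 2 groups this measure is mostly the likeness of the group difference. The closest was miR-148a-3p (0.159), known to target DNMT1, with a log2 ratio of -3.55. It was followed by miR-30a-5p (0.179, log2 ratio -3.92), known to target the autophagy gene BECN1, by miR-181a-5p (0.183, -3.57), a regulator of T cell signalling, by miR-101-3p (0.259, -4.33), known to target EZH2, and by miR-148a-5p (0.268, -3.88). The SE of these ratios was 0.15 to 0.27, and the order was not tested. All of these were far less abundant than miR-21-5p, with miR-30a-5p highest at 15271 ± 1057 CPM in the total RNA group and 1009 ± 184 CPM in the m7G-RIP group (SD, n = 3 each).

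MiR-21-3p was only the 21st most like miR-21-5p, at 0.566. The closest to miR-21-3p were miR-30e-5p (0.285, log2 ratio -4.29), miR-381-3p (0.354, -5.43), miR-101-3p (0.398, -4.33), miR-455-5p (0.440, -4.39) and miR-30a-5p (0.470, -3.92). The sequences of those listed in RefSeq show that none shares the miR-21-5p seed, and that miR-30a-5p and miR-30e-5p share a seed with each other and are nearly identical over their length, so that reads may be split between them.
hsa-miR-148a-3p: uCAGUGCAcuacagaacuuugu
hsa-miR-30a-5p: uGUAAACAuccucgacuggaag
hsa-miR-30e-5p: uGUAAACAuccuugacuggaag
hsa-miR-181a-5p: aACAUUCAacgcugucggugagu
hsa-miR-101-3p: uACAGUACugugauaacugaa
hsa-miR-381-3p: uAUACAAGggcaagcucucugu
hsa-miR-455-5p: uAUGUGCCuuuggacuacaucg

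The seed mate of miR-21-5p was barely detected. MiR-590-5p had 58, 26 and 30 counts in total RNA and 0, 0 and 26 counts in m7G-RIP replicates 1, 2 and 3, where a count of 0 allows up to 1.13 and 1.09 CPM in the first 2. Its m7G-RIP libraries went both below and above total RNA, at 0, 0 and 8.37 CPM against 5.39, 2.53 and 3.28 CPM. Its log2 ratio was -0.94 (SE 1.39), with an adjusted p of 0.591 by edgeR's quasi-likelihood test. Without m7G-RIP replicate 3 all m7G-RIP counts were 0 and the adjusted p was 0.00814, so the outcome rested on that library.

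The antibody recognises a modified guanosine, so base content was set beside the ratios. A mature sequence was found in RefSeq for 557 of the 620 miRNAs tested (89.8%). None was found for miR-21-3p, so its base content was not examined. MiR-21-5p held 5 G among its 22 bases, or 22.7%, where the median of the 557 was 27.8% (quartiles 19% and 36.8%), and 167 had a lower share. It held 8 U (36.4%), above the median of 25%, and only 65 miRNAs had more. It held 6 A (27.3%) and 3 C (13.6%), where the medians were 21.7% and 22.7%. No GG stood in it, as in 140 of the 557 (25.1%), whose median log2 ratio was -0.58 against 0.15 for those with a GG.

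Across the 557 miRNAs the log2 ratio went with G content, with Pearson's r of 0.410 and Spearman's rho of 0.436, and against A content (-0.212 and -0.232) and U content (-0.196 and -0.223). MiRNAs share libraries and families and the base shares of a sequence sum to a whole, so these values are descriptions with no p. The 80 other miRNAs within 2.5 percentage points of the G content of miR-21-5p had a median log2 ratio of -0.94 (quartiles -2.10 and 0.10). Of these 8 lay below miR-21-5p and 24 above 0, so miRNAs of like G content covered a wide range.

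Other oncomiRs were low in m7G-RIP more often than not. Of 19 miRNAs often grouped with miR-21 as raised in carcinomas, 18 were tested, since miR-155-5p did not pass the filter. On the TMM scale 12 were depleted and 4 enriched, beside 29.2% and 23.5% of all miRNAs, and the median log2 ratio was -1.95 against -0.07 for all. The counts were 11 depleted and 5 enriched on library size, beside 22.7% and 34.8% of all miRNAs. With miR-21-5p out of the totals they were 14 and 3, beside 34% and 19%. The depleted members included most of the miR-17-92 cluster, namely miR-17-5p (-2.58), miR-18a-5p (-3.12), miR-20a-5p (-2.92) and miR-19b-3p (-6.82), while miR-92a-3p of that cluster was enriched at 1.12.

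The rest of the list divided as follows. MiR-182-5p (1.07) and miR-183-5p (1.01), which share a cluster, were enriched, and the third member of it, miR-96-5p, was not called at -0.62 (adjusted p = 0.094). MiR-222-3p was enriched at 0.36, although not without miR-21-5p in the totals, while its cluster partner miR-221-3p was depleted at -1.90. MiR-106b-5p (-5.17), the hypoxia miRNA miR-210-3p (-3.34), miR-93-5p (-2.10), miR-27a-3p (-1.99), miR-31-5p (-1.03) and miR-24-3p (-0.76) were depleted, the last of them not called on library size. MiR-25-3p was not called at -0.14 (adjusted p = 0.266), enriched on library size and depleted without miR-21-5p in the totals.

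Few of these lay as low as miR-21-5p. The 3 below it were miR-19b-3p with 2, 6 and 6 counts, miR-106b-5p with 5, 12 and 5 counts, and miR-19a-3p with 1 count in each m7G-RIP library against 306, 306 and 243 in total RNA. MiR-19a-3p was depleted (adjusted p = 3.21e-06), but its fitted ratio rests on single counts and gives no fold. MiR-21-5p itself had 128009 to 152492 counts in m7G-RIP, so its ratio was measured at a depth that none of these 3 had.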

How the data were processed

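Small RNA libraries (NEBNext kit) were sequenced on an Illumina HiSeq. What the authors deposited are unnormalised read counts, 1 value per mature miRNA and library, for 6 libraries. Per the study's methods, adaptors were trimmed with Trimmomatic, reads were aligned to GRCh38 with STAR allowing 1 mismatch and multiple alignments, and featureCounts summarised them on miRBase mature miRNAs. The submitters' processing notes name Bowtie2 in place of STAR. How multiply aligned reads were counted is not given in the sources used here. No molecular identifiers mark the PCR reads that were counted, so intervals and floors cover counting error only, and closely related miRNAs can exchange reads.

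Groups and replicate numbers came from the sample titles. Counts were fitted with edgeR 4.0.16 in R 4.3.3 (TMM scaling, filterByExpr by group, robust quasi-likelihood F test, Benjamini-Hochberg adjustment, threshold 0.05, no replicate block). The filter kept 620 of 2588 miRNAs. The labels do not say that replicates were separate cultures, so p-values measure only the spread between these libraries, which may be technical. Replicates of a group differed by 22.2 to 112 chi-square units per degree of freedom. Replicate numbers were not used to pair the libraries, since no label says that they mark the same RNA. The code was tested on simulated counts.

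The miR-21 strands and all lists were chosen with earlier results of these data known. Named miRNAs are both strands, seed mates of miR-21-5p (bases 2 to 8), and the 5 most like each strand. Likeness used log2 CPM, prior count 2, and at least 10 counts in every library. Others are the 10 most abundant of total RNA, the 10 most abundant whose call changed with miR-21-5p, and the oncomiR list. A further 6 were picked from those the study assayed as mature strands or primary transcripts (others it assayed were left out). The last are the 5 largest strand changes in each direction among hairpins with at least 10 counts of both strands in every library. Hairpins with the lowest mean of both strands, next to miR-21, were named after their values were seen. Strand ratios over hairpins used a pseudocount of 0.5. Alternatives covered scaling, filter, tool (DESeq2 1.42.0), a replicate block and the omission of each library in turn. METTL1 is not a miRNA and was not analysed here.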

Additional observations from a re-analysis of the deposited data

How the results depend on the processing

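Both strands were below total RNA under every one of the 16 alternatives run for their log2 ratio. The ratio of miR-21-5p (-3.82) became -3.27 on library size, -4.13 on library size without miR-21-5p or without both strands, -3.37 with library sizes that leave out the 10 most abundant miRNAs, and -4.10 with no filter, and without one library at a time it was -4.04 to -3.82. That of miR-21-3p (-4.78) became -4.23 on library size, and -5.31 to -4.72 without one library, lowest without m7G-RIP replicate 3. With the 10 most abundant other miRNAs out of the denominator the share difference was -51.5 percentage points for miR-21-5p (-43.9 to -41.7 without one library) and -0.0629 for miR-21-3p (-0.0498 to -0.0437). The log2 change of the strand ratio (1.01) stayed within 0.85 to 1.26 under its 8 alternatives. The shift of other miRNAs was -0.89 to -0.83 without one library, but 0.03 under TMM scaling, which rescales the libraries again after the removal. The log2 ratio of miR-590-5p was -7.89 without m7G-RIP replicate 3, where both remaining m7G-RIP libraries were at 0, and -7.89 to -0.51 over all libraries left out. It had no value with at least 10 counts required in every library. Over 17 alternatives 98 to 216 miRNAs were enriched and 133 to 245 depleted (116 to 134 and 149 to 245 without one library), and DESeq2 gave 160 and 193. The number tested differed, from 359 to 1469 (594 to 778 without one library). The 133 depleted were among 359 tested and the 245 among 778. The oncomiR list gave 3 to 5 enriched and 10 to 14 depleted, where 15 to 19 of its members were tested. The 10 depleted were among 15 tested, with at least 10 counts required in every library. Same-numbered libraries of the groups had correlations of deviations of -0.043, -0.101 and 0.064. These values give no sign of pairing, but cannot show that same-numbered libraries came from different RNA. A fit with a replicate block gave 122 enriched, 175 depleted, -3.82 for miR-21-5p and -4.82 for miR-21-3p. The cause of these moves was not tested. The depth of m7G-RIP limits miR-21-3p, with 57 to 111 counts.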
